A study of Schizosaccharomyces pombe with 8 samples.

Results

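The set described here comprises 10 genes of chromatin remodelling: rsc1, snf21, snf22, hrp1, hrp3, mit1, fft1, fft2, fft3 and swr1 of the fission yeast Schizosaccharomyces pombe. They were taken by name as the ATP-dependent chromatin remodellers outside the INO80 complex together with the RSC subunit gene rsc1, and all 10 were found among the 5137 coding features of the count table. The study sequenced ribosomal RNA-depleted total RNA from 8 libraries in 4 groups of 2. One group had the wild type genotype, and the other groups were labelled as deletions of nht1, iec1 or iec5, each a subunit gene of INO80, itself a nucleosome remodelling complex. All strains were grown in the rich medium YEA and taken in mid-log phase. The wild type strain has a name beginning with SPJ, and the names of the other strains begin with CS. Any difference in background between them cannot be told apart from the labelled deletions in comparisons with wild type. Other alleles of the strains, and whether the 2 libraries of a group came from separate cultures, are not stated in the labels, so p-values measure the spread between these libraries, which may be technical.

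Chromatin remodellers use a Snf2-type ATPase motor to slide, evict, space or exchange nucleosomes. RSC and SWI/SNF open chromatin at promoters, and the CHD1-type enzymes space nucleosomes over transcribed genes. Fun30-type enzymes are known in fission yeast for roles in heterochromatin and its boundaries, and SWR1 places the histone variant H2A.Z next to promoters. INO80 and SWR1 share actin-related and Rvb subunits. Of the set, 9 genes encode such ATPases, while rsc1 encodes a bromodomain subunit of RSC with no motor of its own.

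Coding totals ranged from 2208165 to 3426063 counts per library, and the lowest belonged to replicate 1 of the libraries labelled iec1. Values are given as CPM, the usual count unit scaled to a library's coding total, here after TMM scaling. All 10 genes passed the filter on low counts, as did 4652 coding genes in all, and each had between 185 counts (rsc1) and 1683 counts (snf21) per library. The genes labelled as deleted were checked against the labels before the comparisons. Reads of iec5 fell from 12.6 ± 0.325 CPM (SD, n = 2) in wild type to 2.38 ± 1.30 CPM (SD, n = 2) in the iec5 libraries. Reads of nht1 stood at 45.1 ± 4.98 CPM (SD, n = 2) in wild type and at 29.9 ± 7.12 CPM (SD, n = 2) in the libraries labelled nht1. Reads of iec1 went against the label, with 38.4 ± 2.89 CPM (SD, n = 2) in wild type and 91.9 ± 4.93 CPM (SD, n = 2) in the libraries labelled iec1. Every direction given below for the libraries labelled nht1 or iec1 rests on those labels.

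The tables were also examined for the strand of the counted reads. Of 233 coding features lying wholly under other coding features, all 233 were listed at 0 in all 8 libraries, against 20 of 2523 (0.793%) that overlapped none. The 233 were taken without regard to strand, so this count alone cannot show whether strands were kept apart. A set of 178 antisense noncoding features lay inside a single gene and overlapped no other noncoding feature. Of these, 160 (89.9%) had a count per kilobase (kb) within 2-fold of the gene's own. Sense and antisense reads of overlapping features therefore cannot be told apart in these counts. The genes rsc1, hrp3, fft1, fft3 and swr1 overlap no other feature of either table, and snf21, snf22, hrp1, mit1 and fft2 overlap 13 features between them.

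The gene on which the results turned was rsc1, SPBC4B4.03, at chromosome II, 3416010 to 3418693 on the plus strand of build ASM294v2. The 250 bases before its RefSeq start are shown because its RNA level passed the test while that of its ATPase partner did not. They are given 5′ to 3′ on the gene's strand from RefSeq build ASM294v3, chrII:3415752-3416001, with GATAA in capitals, written TTATC where it lies on the other strand.
rsc1 promoter: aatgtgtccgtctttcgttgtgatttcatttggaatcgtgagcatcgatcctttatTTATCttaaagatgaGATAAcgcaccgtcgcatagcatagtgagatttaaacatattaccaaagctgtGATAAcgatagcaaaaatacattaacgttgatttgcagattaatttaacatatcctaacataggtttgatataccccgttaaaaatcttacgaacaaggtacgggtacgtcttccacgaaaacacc
GATAA, the core read by GATA-type zinc finger factors, was chosen for display after the sequence was read. It occurred 3 times, counting both strands, and the matches did not overlap. At least 1 match was found in 54.2% of 5112 promoter windows of the same length, and 3 or more in 4.44%. The windows of snf21 and fft2 held 1 and 2 matches, and those of the other 7 genes held none. The letters TGACGT (in 5.52% of windows), ACGCGT (2.64%), CAGTCACA (2.62%) and TATAAA (44.4%) were searched on both strands and were not in the rsc1 window. These are descriptions of letters and say nothing about binding.

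Among the tested RSC and SWI/SNF genes, rsc1 was the gene called against wild type. The genes without a call were not shown to be unchanged. Its level was 55.9 and 61.8 CPM in the wild type libraries, 93.4 and 99.7 CPM in the libraries labelled nht1, 140 and 124 CPM in those labelled iec1, and 72.5 and 64.7 CPM in the iec5 libraries. In bulk RNA, a change in every cell and a change in a fraction of the cells cannot be told apart, nor can fewer cells of a type and less RNA per cell. Wild type was lowest, the libraries labelled iec1 were highest, and none of the 4 groups overlapped another. The means were 58.8 ± 4.17, 96.5 ± 4.41, 132 ± 11.5 and 68.6 ± 5.47 CPM in the same order (SD, n = 2 each). Against wild type, rsc1 rose 1.64-fold in the libraries labelled nht1, a log2 fold change of 0.71 ± 0.16 (SE, edgeR adjusted p = 0.0168). It rose 2.23-fold in those labelled iec1, a log2 fold change of 1.16 ± 0.16 (SE, edgeR adjusted p = 0.00013). In the iec5 libraries the log2 fold change was 0.22 ± 0.16 (SE), with a 95% interval from -0.12 to 0.57 and an edgeR adjusted p of 0.993. The rise in the libraries labelled nht1 lost its call in each fit without 1 of the wild type or nht1 libraries, with edgeR adjusted p of 0.126 and 0.0797 without wild type replicates 1 and 2, and 0.078 and 0.15 without nht1 replicates 1 and 2. The rise in the libraries labelled iec1 passed the test in all 14 alternatives.

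The groups other than wild type were also compared with each other for rsc1. In the libraries labelled iec1 it exceeded the iec5 libraries by 0.94 ± 0.16 on the log2 scale (SE, edgeR adjusted p = 0.00181). No other of the 10 genes was called higher there, where 4.02% of all genes were. The difference between the libraries labelled iec1 and nht1 was 0.45 ± 0.16 on the log2 scale (SE, edgeR adjusted p = 0.499). The iec5 libraries stood at -0.49 ± 0.16 on the log2 scale against those labelled nht1 (SE, edgeR adjusted p = 0.273). Neither of these passed the test, nor did any other of the 10 genes in these comparisons, where 0.15% and 0.537% of all genes were called. Of the 3 pairs of groups other than wild type, iec1 and iec5 were thus the pair for which rsc1 was called.

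**Figure D1:**
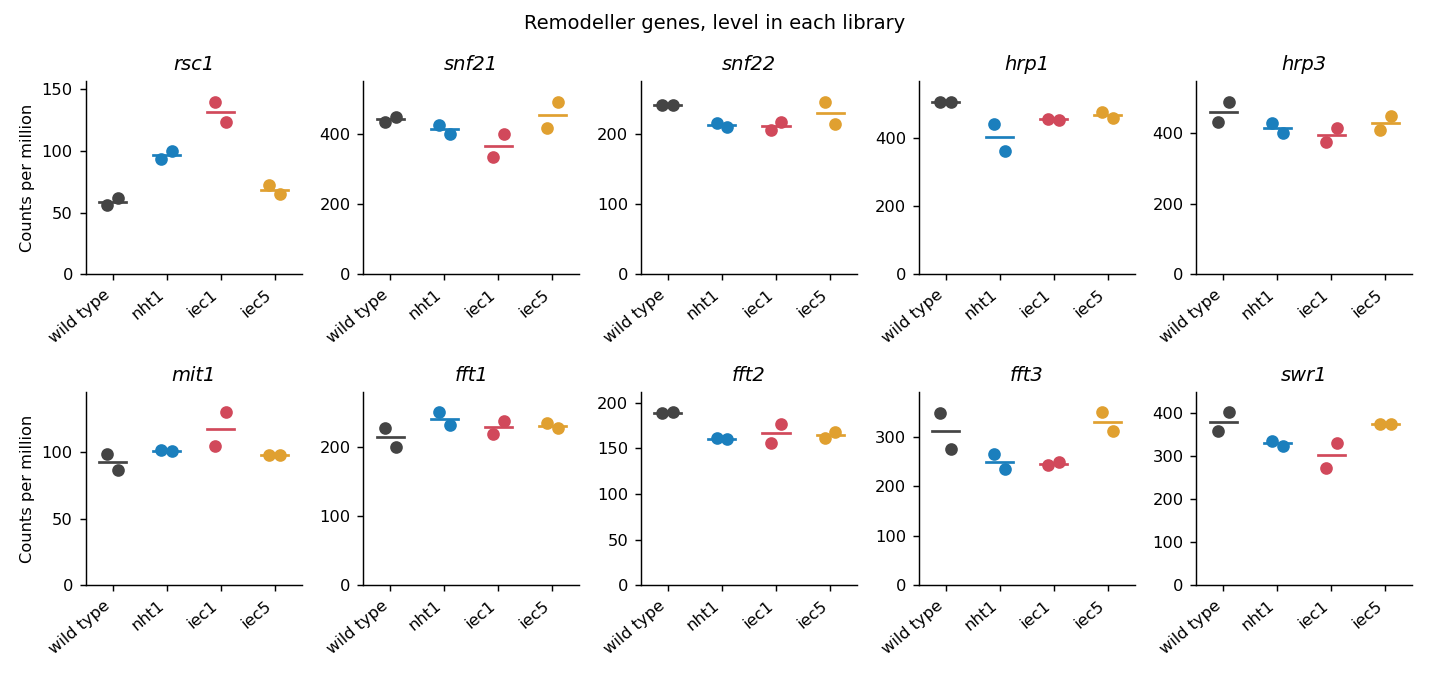
Levels of the 10 genes in each of the 8 libraries, in CPM (linear axes from 0), 1 panel a gene. Points are libraries and bars are means of the 2 libraries of a group; rsc1 ranged from 55.9 to 140 CPM, while the highest library of each other gene was at most 1.5 times its lowest.

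The background for these calls differed between comparisons. In the libraries labelled nht1, 1 of the 10 genes (rsc1) was called higher, where 3.14% of the 4652 tested genes were, and none was called lower, where 0.989% were. In those labelled iec1, again 1 of 10 (rsc1) was called higher, against 8.04% of all genes, and none was called lower, against 2.21%. In the iec5 libraries none was called, where 0.408% of all genes were. At an unadjusted p under 0.05, the edgeR test passed rsc1, hrp1 and fft3 in the nht1 comparison (3 genes, where 17% of all genes passed), rsc1, mit1, fft3 and swr1 in the iec1 comparison (4 genes, 24.1%) and none in the iec5 comparison (4.9%). DESeq2 called rsc1 alone in the nht1 and iec1 comparisons and none in the iec5 libraries. The 3 comparisons share the wild type libraries. One of the 10 genes, rsc1, was called higher in both the nht1 and iec1 comparisons, as were 3.01% of all tested genes.

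None of the 9 ATPase genes passed the test in any comparison with wild type. Snf21, the RSC motor (SPAC1250.01, chromosome I, 5100148 to 5104194, minus strand), stood at 434 and 447 CPM in wild type, 426 and 399 CPM in the libraries labelled nht1, 333 and 399 CPM in those labelled iec1, and 416 and 491 CPM in the iec5 libraries. Both nht1 and both iec1 libraries were below wild type, and the iec5 libraries overlapped it. The log2 fold changes were -0.09 ± 0.14, -0.26 ± 0.14 and 0.04 ± 0.14 (SE) for nht1, iec1 and iec5, with 95% intervals from -0.38 to 0.19, -0.55 to 0.02 and -0.24 to 0.33.

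Per kilobase of counted length under no other coding feature, the RNA of rsc1 was far below that of snf21 in wild type. It stood at 19.1% and 20.5% of the snf21 level in the wild type libraries, 32.5% and 37.0% in those labelled nht1, 62.2% and 45.9% in those labelled iec1, and 25.8% and 19.6% in the iec5 libraries. The nht1 and iec1 libraries lay above all 4 wild type and iec5 libraries. These ratios compare RNA levels of the subunit genes and not the amounts of their proteins. Snf22, the motor of SWI/SNF (SPCC1620.14c, chromosome III, 2171573 to 2179601, minus strand), had 241 CPM in both wild type libraries, 216 and 209 CPM in the libraries labelled nht1, 205 and 217 CPM in those labelled iec1, and 246 and 213 CPM in the iec5 libraries. Its log2 fold changes of -0.18, -0.19 and -0.07 did not pass the edgeR test. The counted span of snf22 is 8029 bases, of which 11.1% lies under another coding feature and 37.2% is in excess of the coding length.

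**Figure D2:**
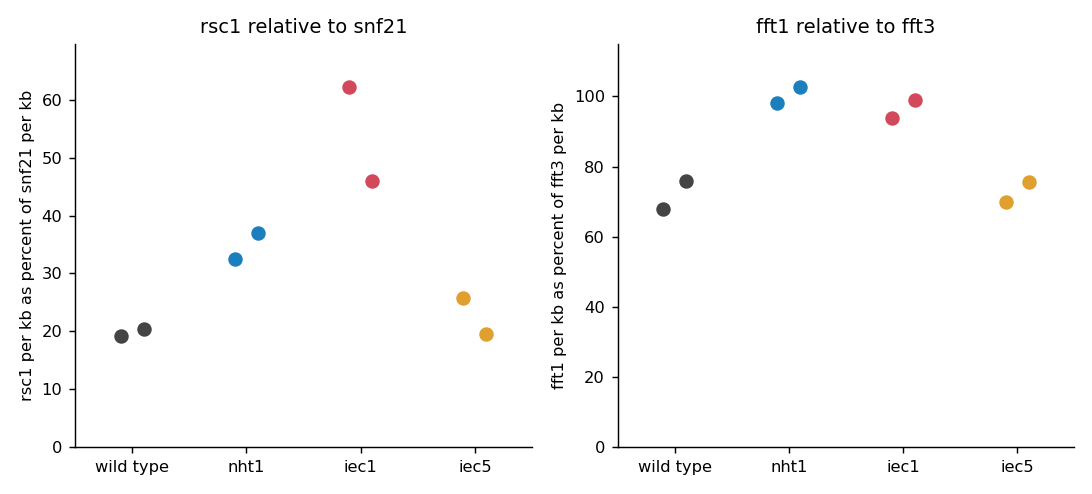
Counts per kilobase of rsc1 as a percent of those of snf21, and of fft1 as a percent of those of fft3, in each of the 8 libraries (points; linear axes). The rsc1 percent is 19.1 and 20.5 in wild type and 62.2 and 45.9 in the libraries labelled iec1. Ratios of snf22 to snf21, hrp1 to hrp3 and fft2 to fft3 are not drawn. Those ratios did not set the nht1 and iec1 libraries apart from the rest.

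The other subunits of RSC and SWI/SNF were taken as a list of 16 genes, of which 13 passed the filter on counts. Arp42 and ssr3, of which 95.2% and 100% of the bases lie under other coding features, were listed at 0 in every library. Rsc4, with 90.1% of its bases under other coding features, had 2 to 12 counts. None of the 13 was called in any comparison with wild type by edgeR or DESeq2. At an unadjusted p under 0.05 edgeR passed 1, 0 and 0 of them in the nht1, iec1 and iec5 comparisons, beside 17%, 24.1% and 4.9% of all genes. Their median log2 fold changes were 0.11, -0.07 and -0.01, beside 0.02, 0.02 and 0.01 for all tested genes. Rsc7, an RSC subunit, had the smallest p in the nht1 comparison, at 150 and 145 CPM against 185 and 187 CPM in wild type (log2 fold change -0.34 ± 0.14, SE, edgeR adjusted p = 0.212). Sfh1, the SNF5-type subunit of RSC, had the smallest in the iec1 comparison, at 143.5 and 120.7 CPM against 149 and 177 CPM (log2 fold change -0.31 ± 0.15, SE, edgeR adjusted p = 0.212). Changes of rsc1 in the nht1 and iec1 comparisons were above the highest value of the list, 0.41 and 0.43 on the log2 scale.

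**Figure D3:**
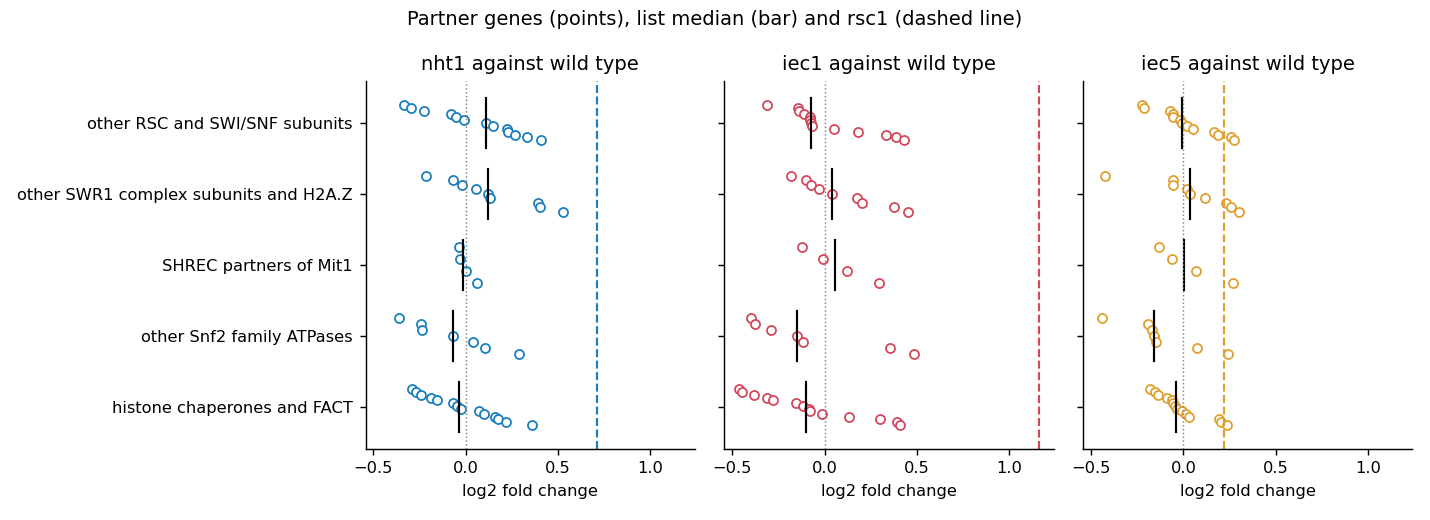
Log2 fold change against wild type of every tested gene in each list of partner genes (points), with the list's median as a bar and rsc1 as a dashed line, for the 3 groups labelled nht1, iec1 and iec5. In the nht1 and iec1 panels the RSC and SWI/SNF points end at 0.41 and 0.43, below the rsc1 line at 0.71 and 1.16.

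The CHD-type genes were hrp1 (SPAC1783.05, chromosome I, 2194820 to 2199471, plus strand) and hrp3 (SPAC3G6.01, chromosome I, 5377829 to 5382913, plus strand), both CHD1-type remodellers, and mit1 (SPBP35G2.10, chromosome II, 981944 to 986422, plus strand), the ATPase of the heterochromatin silencing complex SHREC. Hrp1 stood at 506 and 507 CPM in wild type and at 442 and 363 CPM in the libraries labelled nht1, 458 and 453 CPM in those labelled iec1 and 477 and 458 CPM in the iec5 libraries. All 6 libraries of the other groups were below both wild type libraries. Its log2 fold changes were -0.33 ± 0.13 (SE, edgeR adjusted p = 0.192), -0.15 and -0.12, none called. Hrp3 stood at 432 and 489 CPM in wild type, 428 and 400 CPM in the libraries labelled nht1, 375 and 414 CPM in those labelled iec1 and 409 and 448 CPM in the iec5 libraries. Its log2 fold changes of -0.15, -0.22 and -0.10 were not called. Per kilobase, hrp1 stood at 102% to 138% of hrp3 across the 8 libraries.

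The gene mit1 had the lowest mean of the set per kilobase over the 8 libraries, and it did not pass the test in any comparison with wild type. It had 98.4 and 86.8 CPM in wild type, 102 and 101 CPM in the libraries labelled nht1, 104 and 130 CPM in those labelled iec1, and 97.8 and 98.3 CPM in the iec5 libraries. The libraries of the nht1 and iec1 groups were above both wild type libraries and the iec5 libraries were not. The log2 fold change in those labelled iec1 was 0.35 ± 0.16 (SE, 95% interval from 0.01 to 0.68), which did not pass over all genes (edgeR adjusted p = 0.187). Part of mit1, 34.2% of its bases, lies over the antisense feature SPNCRNA.1401, whose log2 fold changes of 0.17, 0.42 and 0.19 were not called either. The 4 SHREC partner genes clr1, clr2, clr3 and chp2 all passed the filter. None was called against wild type by edgeR or DESeq2, and none had an unadjusted p under 0.05 in edgeR. Their log2 fold changes ran from -0.13 to 0.30. Of all tested genes, edgeR called 4.13%, 10.3% and 0.408% in the nht1, iec1 and iec5 comparisons. At an unadjusted p under 0.05 it passed 17%, 24.1% and 4.9%. With 4 genes, a count of 0 is near these shares. Clr3, the histone deacetylase of the complex, stood at 261 and 285 CPM in the iec5 libraries and at 211 and 243 CPM in wild type (log2 fold change 0.27, edgeR adjusted p = 0.993).

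The Fun30-type genes were fft1 (SPAC20G8.08c, chromosome I, 1411624 to 1415165, minus strand), fft2 (SPCC1235.05c, chromosome III, 182768 to 186998, minus strand) and fft3 (SPAC25A8.01c, chromosome I, 2098195 to 2101876, minus strand). Fft3, which protects heterochromatin and its boundaries, stood at 347 and 274 CPM in wild type, 264 and 234 CPM in the libraries labelled nht1, 243 and 248 CPM in those labelled iec1 and 349 and 311 CPM in the iec5 libraries. The nht1 and iec1 libraries lay below wild type and the iec5 libraries overlapped it. Its log2 fold changes were -0.32 ± 0.14 (SE, edgeR adjusted p = 0.261), -0.34 ± 0.14 (SE, edgeR adjusted p = 0.155) and 0.09 ± 0.14 (SE, edgeR adjusted p = 0.993). Between the libraries labelled iec1 and the iec5 libraries the log2 fold change was -0.42 ± 0.14 (SE, edgeR adjusted p = 0.119). The wild type libraries differed by more for fft3 than for its relatives, with an SD of 51.9 CPM around a mean of 311 CPM.

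Fft1 and fft2 were less spread. Fft1 stood at 227 and 200 CPM in wild type, 249 and 231 CPM in the libraries labelled nht1, 219 and 236 CPM in those labelled iec1 and 234 and 226 CPM in the iec5 libraries, with log2 fold changes of 0.17, 0.09 and 0.11. Fft2 stood at 188 and 189 CPM in wild type and from 156 to 177 CPM in the libraries of the other groups, all of them below it, with log2 fold changes of -0.23, -0.18 and -0.20. None of these passed the edgeR test. Per kilobase, fft1 stood at 67.9% and 75.9% of fft3 in wild type, 98.1% and 103% in the libraries labelled nht1, 93.7% and 98.9% in those labelled iec1, and 69.9% and 75.6% in the iec5 libraries. The nht1 and iec1 values did not overlap those of the other groups, and this ratio was not tested. As a percent of fft3, fft2 stood at 47.2% and 60.1% in wild type and 53.0% and 59.8% in the libraries labelled nht1. It stood at 55.9% and 61.9% in those labelled iec1 and at 40.3% and 47.1% in the iec5 libraries. For fft2 the nht1 and iec1 values thus overlapped wild type.

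The gene swr1 (SPAC11E3.01c, chromosome I, 5277395 to 5281420, minus strand) encodes the motor of the SWR1 complex. It stood at 359 and 402 CPM in wild type, 335 and 325 CPM in the libraries labelled nht1, 273 and 331 CPM in those labelled iec1 and 376 and 374 CPM in the iec5 libraries. The log2 fold change in the libraries labelled iec1 was -0.33 ± 0.13 (SE, 95% interval from -0.61 to -0.05), not called over all genes (edgeR adjusted p = 0.137). In the nht1 and iec5 comparisons it was -0.21 and -0.02. Of 10 other SWR1 genes with H2A.Z, 9 passed the filter and none was called by edgeR or DESeq2, with 1, 1 and 0 at an unadjusted p under 0.05 in the nht1, iec1 and iec5 comparisons (17%, 24.1% and 4.9% of all genes). Msc1, a SWR1 subunit, had the smallest p in the nht1 comparison, at 98.8 and 101 CPM against 74.9 and 63.9 CPM (log2 fold change 0.53 ± 0.20, SE, edgeR adjusted p = 0.189). It also had the smallest in the iec1 comparison, at 121 and 71.1 CPM, a log2 fold change of 0.45 ± 0.21 (SE, edgeR adjusted p = 0.191). Pht1, the H2A.Z histone itself, had log2 fold changes of 0.12, -0.07 and -0.05.

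**Figure D4:**
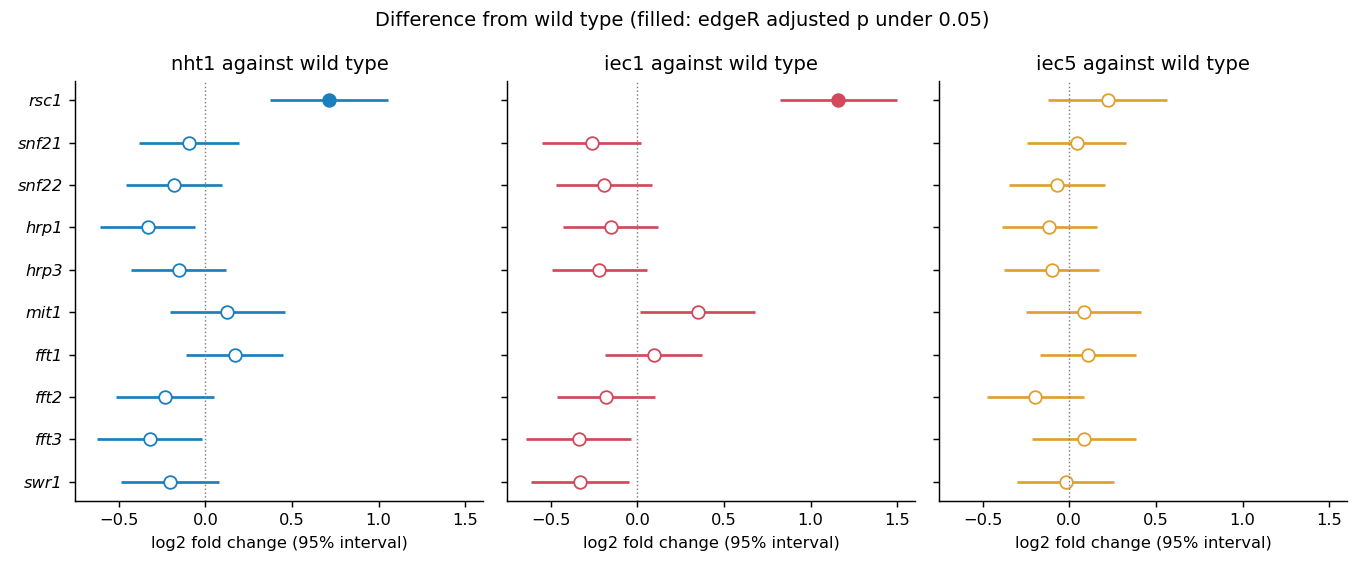
Log2 fold change of the 10 genes against wild type for the 3 groups labelled nht1, iec1 and iec5, with 95% intervals as bars and filled points where the edgeR adjusted p was under 0.05. The filled points are rsc1 at 0.71 (nht1) and 1.16 (iec1), and the other 9 genes lie between -0.34 and 0.35.

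The spread of the changes was narrow apart from rsc1. The 9 ATPase genes ran from -0.33 to 0.17 in the libraries labelled nht1 (edgeR adjusted p from 0.192 to 0.786), from -0.34 to 0.35 in those labelled iec1 (0.137 to 0.721) and from -0.20 to 0.11 in the iec5 libraries (0.993). The medians over the 10 genes were -0.17, -0.19 and 0.01, beside 0.02, 0.02 and 0.01 for all tested genes. In the nht1 comparison snf21, snf22, hrp1, hrp3, fft2, fft3 and swr1 had both libraries below both wild type libraries, 7 of 10 where 21% of all genes did. The iec1 comparison gave 7 as well, where 23.3% of all genes did, and the iec5 comparison gave 2 (hrp1 and fft2), where 14% did. Both libraries were higher for rsc1, mit1 and fft1 in the nht1 comparison (3 genes, where 26.8% of all genes did so). They were higher for rsc1 and mit1 in the iec1 comparison (2 genes, 27.8%) and for rsc1 in the iec5 comparison (1 gene, 18.1%). The share of coding counts taken by the 9 ATPase genes together was 0.287% and 0.284% in wild type, 0.258% and 0.241% in the libraries labelled nht1, 0.234% and 0.261% in those labelled iec1, and 0.282% and 0.279% in the iec5 libraries. This share was lower in all 4 libraries labelled nht1 or iec1 than in the other 4, and it was not tested.

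Averaged over the 8 libraries, the order of levels per kilobase was snf21 (105 CPM per kb), hrp1 (102), swr1 (86.2), hrp3 (83.5), fft3 (77.0), fft1 (64.3), fft2 (40.2), rsc1 (33.1), snf22 (31.3) and mit1 (23.2). The ranges over libraries of neighbours in this order overlapped, apart from fft1 and fft2, where fft1 ran from 56.5 to 70.3 and fft2 from 36.8 to 44.7 CPM per kb. The highest library was 2.50 times the lowest for rsc1 and 1.2 to 1.5 times for the others. In wild type and the iec5 libraries, rsc1 stood below snf22, and in the libraries labelled nht1 or iec1 above it. The level of snf22 per kilobase depends on its counted span, which is 8029 bases against 6668 in RefSeq.

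The lists of shared and related chromatin genes gave the setting of these values. A list of 4 genes holds the actin and Rvb subunits shared by INO80 and SWR1. None of them was called by edgeR, with 2 at an unadjusted p under 0.05 in the iec1 comparison (24.1% of all genes) and none in the others. Of these, rvb2, an AAA-type ATPase of both complexes, stood at 522 and 525 CPM in the libraries labelled iec1 and 656 and 671 CPM in wild type (log2 fold change -0.34 ± 0.12, SE, edgeR adjusted p = 0.082). DESeq2 called it (adjusted p = 0.0353). Of 16 histone chaperone and FACT genes, 14 passed the filter and none was called by edgeR, with 4 at an unadjusted p under 0.05 in the iec1 comparison (24.1% of all genes) and none in the others. DESeq2 called pob3, a FACT subunit (adjusted p = 0.0342), and nap1, a histone H2A and H2B chaperone (adjusted p = 0.046), in the libraries labelled iec1. In edgeR their log2 fold changes were -0.45 and -0.31.

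Of 8 other Snf2-family ATPase genes, 7 passed the filter and none was called by edgeR, with 1, 4 and 0 at an unadjusted p under 0.05 in the nht1, iec1 and iec5 comparisons, where 17%, 24.1% and 4.9% of all genes were. Mot1, which removes the TATA-binding protein from DNA, had the smallest p in the iec1 comparison (log2 fold change -0.40, edgeR adjusted p = 0.056), and DESeq2 called it (adjusted p = 0.0258). Among 11 genes specific to INO80, all 11 passed the filter. The call in the iec1 comparison was iec1 itself, higher, and that in the iec5 comparison was iec5, lower, and none was called in the nht1 comparison, with 3 at an unadjusted p under 0.05 (17% of all genes). DESeq2 gave the same calls for INO80.

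The genes beside the 10 were tested in the same fit. Upstream of rsc1 lies nca2 (SPBC4B4.02c), divergent, with a gap of 710 bases, and downstream lies eif21 (SPBC4B4.04), on the same strand, after a gap of 146 bases. Nca2 had log2 fold changes of 0.12, 0.23 and 0.11 (edgeR adjusted p of 0.799, 0.482 and 0.993), and eif21 of 0.19, 0.14 and -0.09 (edgeR adjusted p of 0.534, 0.584 and 0.993). Neither gene was called where rsc1 was. Of the 20 neighbours of the 10 genes, edgeR and DESeq2 called none against wild type. Among all tested genes, edgeR called 4.13%, 10.3% and 0.408% in the nht1, iec1 and iec5 comparisons. At an unadjusted p under 0.05 edgeR passed fta2 and nbr1 in the nht1 comparison, where 17% of all genes passed. It passed those and prp40 and nat10 in the iec1 comparison (24.1% of all genes) and none in the iec5 comparison (4.9%).

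The noncoding features overlapping the set numbered 8, and 7 were tested. None was called against wild type, where 6.57%, 14.7% and 1.46% of 1096 tested noncoding features were called in the nht1, iec1 and iec5 comparisons. At an unadjusted p under 0.05 edgeR passed 1 of the 7 in the nht1 comparison and none in the others. The share of all noncoding features passing at that level is not given here, so this count has no background. The feature that passed was SPNCRNA.1117, which runs against fft2 at chromosome III, 186332 to 187386. It had 12.1 and 10.7 CPM in wild type and 5.66 and 5.82 CPM in the libraries labelled nht1. In those labelled iec1 it had 7.79 and 12.3 CPM, and in the iec5 libraries 10.2 and 9.04 CPM. The counts behind these were 40 and 35, 18 and 16, 17 and 42, and 31 and 31 in the same order. The log2 fold change in the libraries labelled nht1 was -0.98 ± 0.40 (SE, edgeR adjusted p = 0.167). Inside hrp1, the antisense feature SPNCRNA.803 covers 57.8% of the gene and had 3160 counts per kb over the 8 libraries, against 2428 for hrp1. Inside mit1, SPNCRNA.1401 had 499 against 562.

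**Figure D5:**
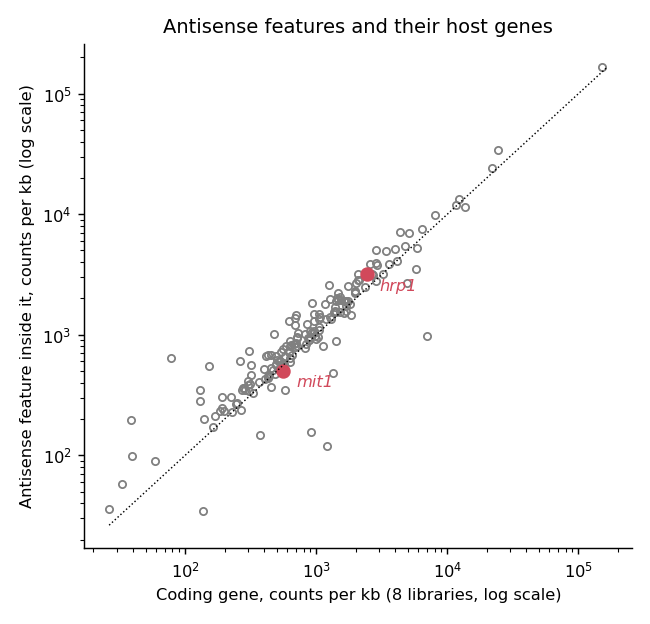
Counts per kilobase of antisense noncoding features against those of the gene they lie in, summed over the 8 libraries (both axes log). Each feature lies inside a single gene and overlaps no other noncoding feature, and the full counted lengths are used. Red points are SPNCRNA.803 in hrp1 (3160 against 2428) and SPNCRNA.1401 in mit1 (499 against 562), and features with no counts are not drawn.

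The genes whose pattern over the 8 libraries was most like that of rsc1 were avl9 (Pearson r of log2 CPM 0.989), alx1 (0.986) and spc3 (0.986). Such values were common, since 182 of 4651 other genes had r above 0.9 over these 8 libraries, which fall into 4 groups and share their scaling. Avl9 had log2 fold changes of 0.45 and 0.77 in the libraries labelled nht1 and iec1, alx1 of 0.81 and 1.37 and spc3 of 0.29 and 0.54. These 3 genes were picked for their likeness to rsc1 in the same libraries, so the values are a description and no test is given.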

How the data were processed

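RNA was sequenced in 8 libraries, 2 each of wild type and of strains with the labels nht1, iec1 and iec5 deletion. Whole-number counts per coding and noncoding feature were deposited by the authors, with no normalization. Per the labels' protocols, libraries came from RiboMinus-depleted RNA and the NEBNext Ultra II Directional kit. HISAT2 2.1.0, featureCounts 1.6.1, DESeq2 1.28.0 and build ASM294v2 are named, per the submitters' processing notes. No source used here gives the strand setting of the counting.

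Counts were tested in R 4.3.3 with the edgeR 4.0.16 quasi-likelihood test (glmQLFit, glmQLFTest) after TMM scaling and filterByExpr, in 1 fit of all 8 libraries. This left 4652 of 5137 coding genes, at a biological variation (BCV) of 11.9%, and 1096 of 1528 noncoding features, which took the coding library sizes. The threshold for a call was 0.05 on the Benjamini-Hochberg adjusted p over all tested genes. Standard errors were derived from the F statistic and the size of the log2 fold change and are approximate. Fold changes use the default prior count of edgeR, and the log2 CPM of the correlations use a prior count of 2. Levels per kilobase use bases under no other coding feature. The fitting code was tested on simulated data.

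Symbols, promoter windows and gene order came from RefSeq build ASM294v3. Of the features, 5115 matched it, and 99.8% of those share a start or an end, while coordinates of genes are those of the deposited tables on ASM294v2. The 69 symbols of the partner lists were all matched, after 2 synonyms of genes already listed were dropped. The 10 genes and the lists were chosen with earlier results of these data known. The genes named were the 10 members, the up to 2 list genes of smallest p where none was called, the genes labelled as deleted and the 3 genes most like rsc1. Genes that DESeq2 called, pht1, clr3 and nap1 were named after their values were seen. Alternatives were DESeq2 1.42.0, its size-factor type of scaling (RLE), no filter, a replicate block, 2-group fits, a minimum log2 fold change of 1 and leaving out each library.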

Additional observations from a re-analysis of the deposited data

How the results depend on the processing

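The rise of rsc1 in the libraries labelled iec1 passed the test under all 14 alternatives, with log2 fold changes from 1.07 to 1.23 in the fits without 1 library. In the nht1 comparison the count of called members went from 1 to 0 with a minimum log2 fold change of 1, and lay between 0 and 1 without single libraries. In the iec1 against iec5 comparison it went from 1 to 2 (fft3 added, adjusted p = 0.0461) with the replicate block and to 0 with the minimum log2 fold change of 1. Coding genes called numbered 192 (nht1), 477 (iec1) and 19 (iec5), and 356, 695 and 37 with the replicate block, 66, 176 and 12 with the minimum log2 fold change of 1. Without single libraries they ranged from 51 to 243, from 234 to 484 and from 2 to 22. In the nht1 comparison the counts were 90 and 70 without wild type replicates 1 and 2, and 62 and 51 without nht1 replicates 1 and 2. In the iec1 comparison they were 295 and 234 without wild type replicates 1 and 2 and 290 without iec1 replicate 1. In the iec5 comparison they were 2 and 9 without the wild type replicates and 9 without iec5 replicate 1. Correlations of same-numbered libraries' deviations ran from -0.07 to 0.27, so the numbers were not taken to pair the libraries, and the block moved no other call of a member. Of 840 alternative values of the 10 genes, 814 kept direction and side of the threshold, 19 changed sign with no call, 6 lost a call and 1 gained one. With 2 libraries a group, a fit without 1 of them assumes that the lone library varies like the others. The call of iec5 itself was lost in fits without a wild type, nht1 or iec5 library (adjusted p from 0.0527 to 0.417). Depth limits what can be seen of rsc1 to 185 to 421 counts per library.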
